A study of Oryza sativa with 8 samples.

Results

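Ferritins FER1 and FER2, the iron sensors HRZ1 and HRZ2, the vacuolar iron transporters VIT1 and VIT2, the metal uptake transporters NRAMP1 and NRAMP5, and the metal pumps HMA2 and HMA3 were followed in rice (Oryza sativa) roots. These 10 genes were picked by locus identifier from the 55801 loci of an expression table, and all 10 were found. Poly(A) RNA was sequenced from roots in 4 groups of 2 libraries each. They were carbon dot roots at D6 (D6_100X), control roots at D6 (D6_CK), carbon dot roots at D4 (D4_100X) and control roots at D4 (D4_CK), where carbon dot roots carry the treatment label 100X CD and control roots the label normal. The series title places the carbon dots, which are nanometre-sized carbon particles, in a seed priming experiment. D4, D6 and 100X are used as names, since the labels give them no unit, and cultivar, genotype and age are not stated either. Nothing in the labels says that the libraries of a group came from separate plants or cultures, so the p-values measure the spread between these libraries, which may be technical.

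Iron is needed for respiration and photosynthesis but is toxic when free in the cell. Plant cells therefore store it in plastids inside ferritin shells, or pump it into the vacuole through VIT transporters. In rice, HRZ proteins are ubiquitin ligases that bind iron and hold the iron deficiency response in check, and their own transcripts are known to rise when iron is short. NRAMP1 and NRAMP5 sit in the plasma membrane of root cells and carry manganese, iron and cadmium inwards. HMA2 moves zinc and cadmium towards the shoot, and HMA3 locks cadmium into root vacuoles.

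The table gives FPKM, fragment numbers scaled to gene length and to library total, so levels of different genes can be compared. All 10 genes passed the expression filter of at least 1 FPKM in at least 2 libraries, as did 22794 loci in all. Whole fragment numbers could be worked back from the FPKM. Each library rested on 22.87 M fragments, and the 10 genes had between 125 and 2710 fragments per library. Counting error alone thus comes to at most 8.94% of a value. Green shoot markers were near 0: the 8 listed photosynthesis loci summed to between 0.756 and 2.99 FPKM in every library, and 1 of them was listed at 0 throughout D6_CK and 1 throughout D4_CK. The 3 seed remnant loci summed to at most 3.44 FPKM. The 3 root marker loci were high, at summed levels of 1730 to 2310 FPKM in D6_100X and 2840 FPKM in both D6_CK libraries, against 3090 to 4490 FPKM in D4_100X and 3160 to 4000 FPKM in D4_CK.

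The order of the 10 levels was not the same at D6 and D4. At D6, NRAMP1 was the highest of the 10, averaging 51.1 ± 7.19 FPKM in the carbon dot roots and 46.5 ± 0.614 FPKM in the controls (SD, n = 2 each). HMA2 came next, at 32.8 ± 1.5 FPKM with carbon dots and 31.8 ± 5.04 FPKM in the controls, and its libraries lay below those of NRAMP1 in both groups. Taken singly, the iron storage genes had the lowest means at D6: both ferritins and both VIT genes averaged between 4.28 FPKM (VIT1 in D6_100X) and 7.86 FPKM (FER1 in D6_CK). In D6_100X, however, the upper FER1 library (8.34 FPKM) lay just above the lower NRAMP5 library (8.11 FPKM). The 2 ferritins may also share reads, as described below. Their sum averaged 13.9 ± 0.324 FPKM in D6_100X and 15.7 ± 2.89 FPKM in D6_CK. At D4, HMA2 had the highest mean, 26.2 ± 2.19 FPKM in D4_100X and 25.2 ± 5.43 FPKM in D4_CK, with NRAMP5 overlapping it. Below these the D4 means ran from 9.25 FPKM (HRZ2 in D4_100X) to 16.1 FPKM (NRAMP1 in D4_CK), and neighbouring genes in the order overlapped, except that both FER1 libraries lay above both FER2 libraries in D4_CK.

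**Figure D1:**
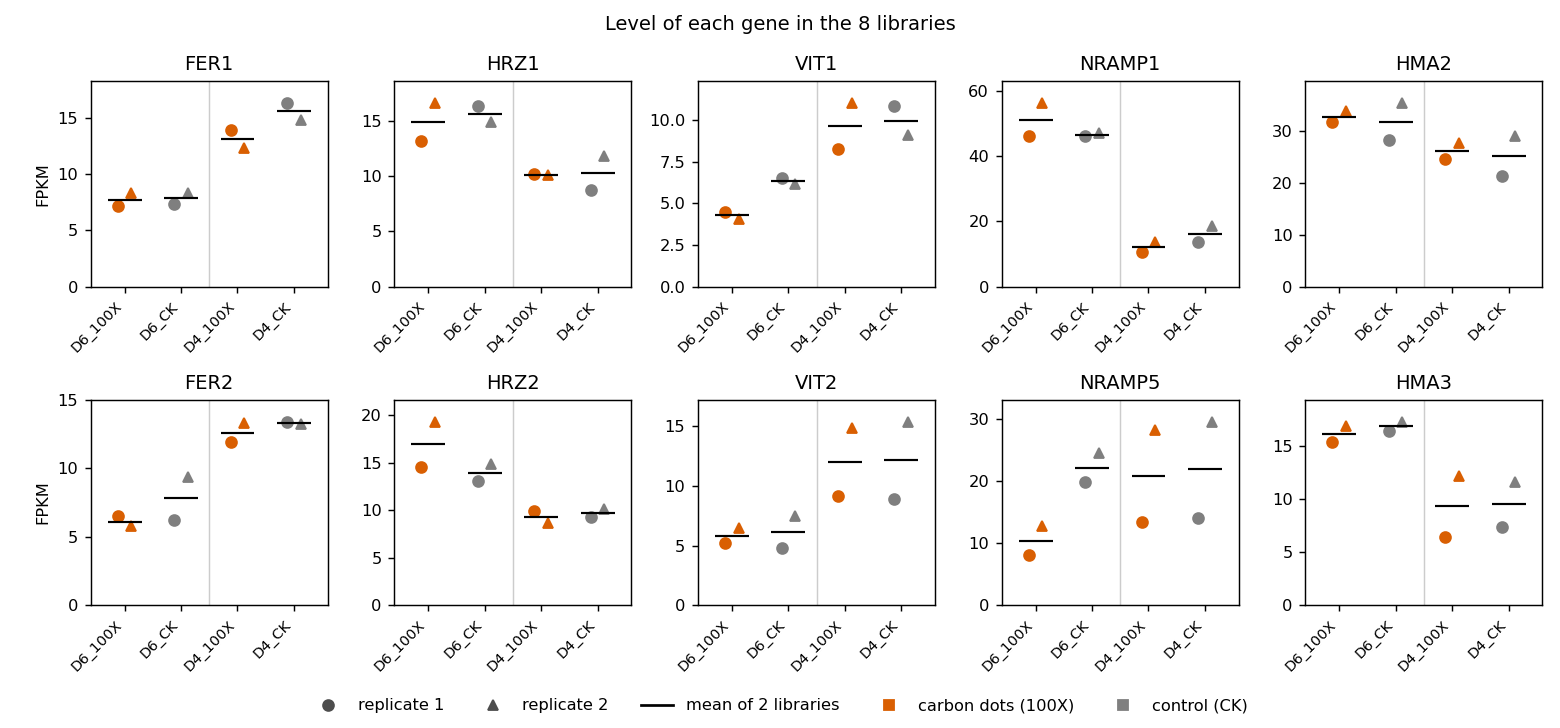
FPKM (vertical axis, from 0) of each of the 10 genes in the 4 groups. Points are single libraries (circles replicate 1, triangles replicate 2), orange for carbon dots and grey for controls, and bars are means of 2 libraries. FER1, FER2, VIT1 and VIT2 are lower in all D6 libraries than in any D4 library, NRAMP1 is 46.0 to 56.2 FPKM at D6 and 10.7 to 18.5 FPKM at D4, and NRAMP5 is lowest in D6_100X.

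The comparison of D6 with D4 asked which of these genes differ between the samplings, with carbon dots and without. The ferritins fell and NRAMP1 rose at D6 in both kinds of root. In the carbon dot roots 5 of the 10 genes passed (limma, Benjamini-Hochberg adjusted p under 0.05 over all tested loci), of which NRAMP1 and HRZ2 rose and FER1, FER2 and VIT1 fell. Over all tested loci 29.8% passed in that comparison, 14.5% upwards and 15.3% downwards. In the control roots 3 of the 10 passed, NRAMP1 upwards and FER1 and FER2 downwards, against 10.1% of all tested loci, of which 5.42% rose and 4.72% fell. The median log2 fold change of the 10 genes was -0.19 with carbon dots and 0.22 in the controls, beside -0.04 and -0.05 over all tested loci. Of the 10 log2 fold changes, 5 were positive and 5 negative with carbon dots, against 6 and 4 in the controls. Only NRAMP5 changed sign (-0.88 and 0.10). These are fold changes of FPKM + 1, which understate the change of low genes. Whether D6 and D4 libraries of single genes overlapped is given below as a description only. The share of all tested loci whose D6 and D4 groups lay apart was not counted. A fall or rise in whole roots can come from fewer or more cells of a type or from less or more RNA per cell, which cannot be told apart here. The lower sums of the root markers at D6 moved with these differences, and their part in them was not tested.

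FER1 (LOC_Os11g01530) stood at 7.15 and 8.34 FPKM in D6_100X, against 13.9 and 12.3 FPKM in D4_100X. In the controls it stood at 7.37 and 8.36 FPKM in D6_CK, against 16.3 and 14.8 FPKM in D4_CK. Every D6 library was below every D4 library. The log2 fold change was -0.69 ± 0.12 (SE) with carbon dots (limma adjusted p = 0.00822) and -0.90 ± 0.12 in the controls (limma adjusted p = 0.0120). FER2 (LOC_Os12g01530) stood at 6.48 and 5.75 FPKM in D6_100X, against 11.9 and 13.3 FPKM in D4_100X. Its control values were 6.25 and 9.34 FPKM in D6_CK, against 13.4 and 13.2 FPKM in D4_CK. The groups again did not overlap. Its log2 fold change was -0.93 ± 0.17 with carbon dots (limma adjusted p = 0.00953) and -0.72 ± 0.17 in the controls (limma adjusted p = 0.0481).

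The ferritin genes are near-identical copies on chromosomes 11 and 12, so they may share reads, and how such reads were counted is not given in the sources used here. Added together they came to 13.6 and 14.1 FPKM in D6_100X, against 25.8 and 25.6 FPKM in D4_100X, and to 13.6 and 17.7 FPKM in D6_CK, against 29.6 and 28.0 FPKM in D4_CK. The sum fell by 0.85 on the log2 scale in both comparisons (limma adjusted p = 0.00455 with carbon dots and 0.0141 in the controls). The single-gene control calls were fragile. FER2 lost its call when any of 7 of the 8 libraries was left out (limma adjusted p of 0.0523 to 0.203), D6_CK replicate 2 being the exception, and without D6_CK replicate 1 its log2 fold change was -0.47. It was also lost without a filter (0.0840), with a pseudocount of 0.1 (0.0514) and with only the groups compared in the fit (0.0956). FER1 lost its call in the controls without D4_CK replicate 1 (0.0673) and without D6_CK replicate 1 (0.0979). With carbon dots the FER1 call was lost without D6_100X replicate 1 (0.0582) and the FER2 call without D6_100X replicate 2 (0.0650).

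Of the vacuolar iron transporters, VIT1 passed with carbon dots and VIT2 in neither comparison. VIT1 (LOC_Os04g38940), which carries iron and zinc across the vacuole membrane, stood at 4.49 and 4.07 FPKM in D6_100X, against 8.23 and 11 FPKM in D4_100X. In D6_CK it stood at 6.54 and 6.18 FPKM, against 10.8 and 9.08 FPKM in D4_CK. It fell in the carbon dot roots, with a log2 fold change of -0.997 ± 0.157 (limma adjusted p = 0.00536), and this call held without each of the 8 libraries in turn. The control libraries did not overlap either, with a log2 fold change of -0.57 ± 0.16 that did not pass (limma adjusted p = 0.0682). The difference between the 2 changes did not pass (limma adjusted p = 0.620).

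VIT2 (LOC_Os09g23300), its close relative, stood at 5.19 and 6.47 FPKM in D6_100X, against 9.14 and 14.9 FPKM in D4_100X. In D6_CK it stood at 4.84 and 7.47 FPKM, against 8.89 and 15.4 FPKM in D4_CK. Each D6 group lay below its D4 group, and within each D4 group the libraries were far apart. The log2 fold changes, -0.90 ± 0.33 with carbon dots and -0.86 ± 0.33 in the controls, did not pass (limma adjusted p = 0.0799 and 0.145).

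Of the iron sensors, HRZ2 passed with carbon dots and HRZ1 in neither comparison. HRZ2 (LOC_Os05g47780) stood at 14.5 and 19.3 FPKM in D6_100X, against 9.87 and 8.63 FPKM in D4_100X. In the controls it stood at 13.1 and 14.8 FPKM in D6_CK, against 9.23 and 10.1 FPKM in D4_CK. It rose with carbon dots (log2 fold change 0.79 ± 0.15, limma adjusted p = 0.0110), a call lost without D6_100X replicate 2 (0.0611), and had a log2 fold change of 0.48 ± 0.15 in the controls, which did not pass (limma adjusted p = 0.0985). HRZ1 (LOC_Os01g49470) stood at 13.2 and 16.6 FPKM in D6_100X, against 10.2 and 10.1 FPKM in D4_100X, and at 16.3 and 14.9 FPKM in D6_CK, against 8.74 and 11.8 FPKM in D4_CK. Its groups did not overlap, and its log2 fold changes of 0.51 ± 0.17 and 0.57 ± 0.17 did not pass (limma adjusted p = 0.0593 with carbon dots and 0.0786 in the controls).

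NRAMP1 (LOC_Os07g15460) changed most among the 10. It stood at 46.0 and 56.2 FPKM in D6_100X, against 10.7 and 13.7 FPKM in D4_100X, and at 46.1 and 47.0 FPKM in D6_CK, against 13.7 and 18.5 FPKM in D4_CK. All 4 D6 libraries were well above all 4 D4 libraries. The rise was 3.95-fold in FPKM + 1 with carbon dots (log2 fold change 1.98 ± 0.18, limma adjusted p = 0.00102), past 98.4% of all tested loci. In the controls it was 2.80-fold (1.49 ± 0.18, limma adjusted p = 0.00900), past 98.2% of them. The control call was lost without D6_CK replicate 1 (limma adjusted p = 0.0768), and the call with carbon dots held without each of the 8 libraries in turn.

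**Figure D2:**
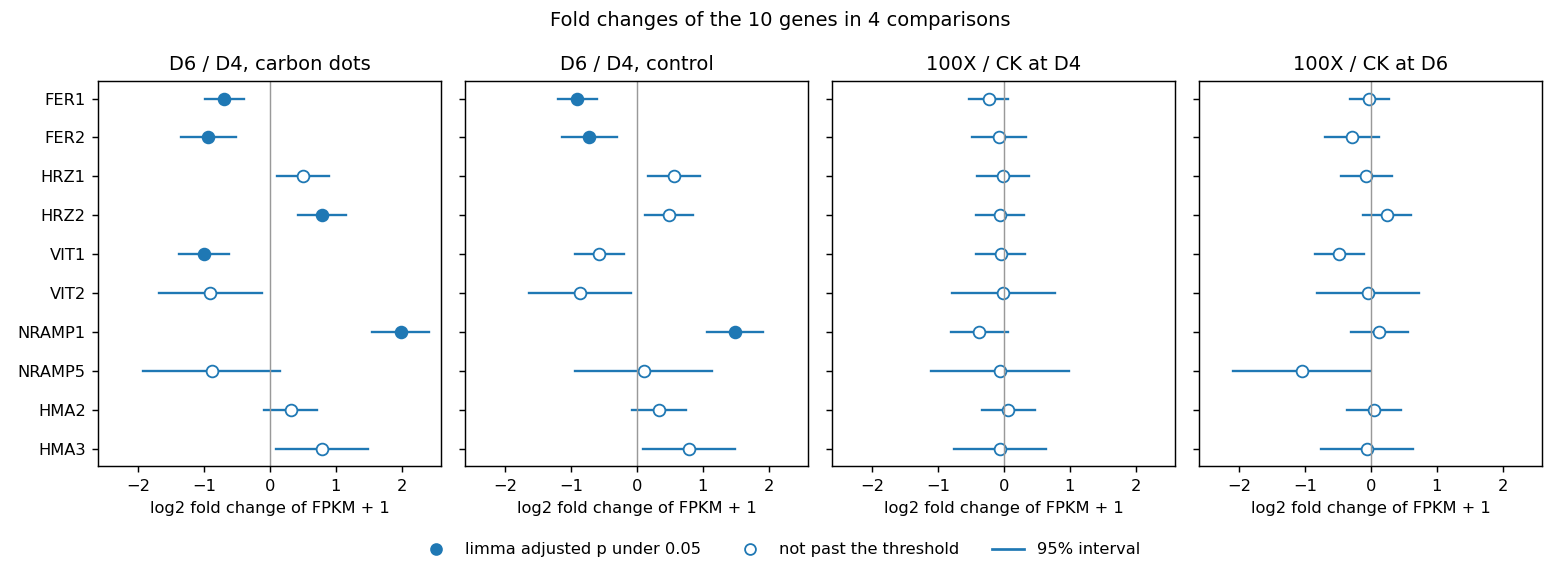
Log2 fold changes of FPKM + 1 (horizontal axis) of the 10 genes in 4 comparisons, with 95% intervals from limma. Filled points passed the adjusted threshold of 0.05: FER1, FER2, HRZ2, VIT1 and NRAMP1 for D6 over D4 with carbon dots, FER1, FER2 and NRAMP1 for D6 over D4 in controls, and no gene for carbon dots over control at D4 or D6.

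NRAMP5 (LOC_Os07g15370), the main manganese and cadmium entry route of rice roots, lies on chromosome 7 with 7 table loci between it and NRAMP1, and it did not move with its neighbour. It stood at 8.11 and 12.7 FPKM in D6_100X, against 13.5 and 28.2 FPKM in D4_100X. In the controls it stood at 19.9 and 24.5 FPKM in D6_CK, against 14.1 and 29.6 FPKM in D4_CK, so that the control groups overlapped. Neither log2 fold change passed (-0.88 ± 0.44, limma adjusted p = 0.174 with carbon dots, and 0.10 ± 0.44, limma adjusted p = 0.904 in the controls).

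Within a library, NRAMP1 was below NRAMP5 at D4 and above it at D6, a ratio that was chosen after the values were seen and is given without a test. It was 5.67 and 4.42 in D6_100X and 2.32 and 1.91 in D6_CK, against 0.788 and 0.487 in D4_100X and 0.973 and 0.625 in D4_CK. The highest ratios were those of the carbon dot roots at D6, where NRAMP5 was lowest.

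Neither metal pump passed in either comparison. HMA3 (LOC_Os07g12900), the vacuolar cadmium pump, stood at 15.4 and 16.9 FPKM in D6_100X, against 6.45 and 12.2 FPKM in D4_100X, and at 16.4 and 17.3 FPKM in D6_CK, against 7.38 and 11.6 FPKM in D4_CK. The groups did not overlap, but the log2 fold changes of 0.78 ± 0.29 with carbon dots and 0.79 ± 0.29 in the controls did not pass (limma adjusted p = 0.0871 and 0.136). HMA2 (LOC_Os06g48720), the pump for zinc and cadmium on the way to the shoot, stood at 31.7 and 33.8 FPKM in D6_100X, against 24.6 and 27.7 FPKM in D4_100X, and at 28.3 and 35.4 FPKM in D6_CK, against 21.3 and 29.0 FPKM in D4_CK. The control groups overlapped and the carbon dot groups did not. Its log2 fold changes of 0.31 ± 0.17 and 0.33 ± 0.17 did not pass (limma adjusted p = 0.210 with carbon dots and 0.259 in the controls).

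**Figure D3:**
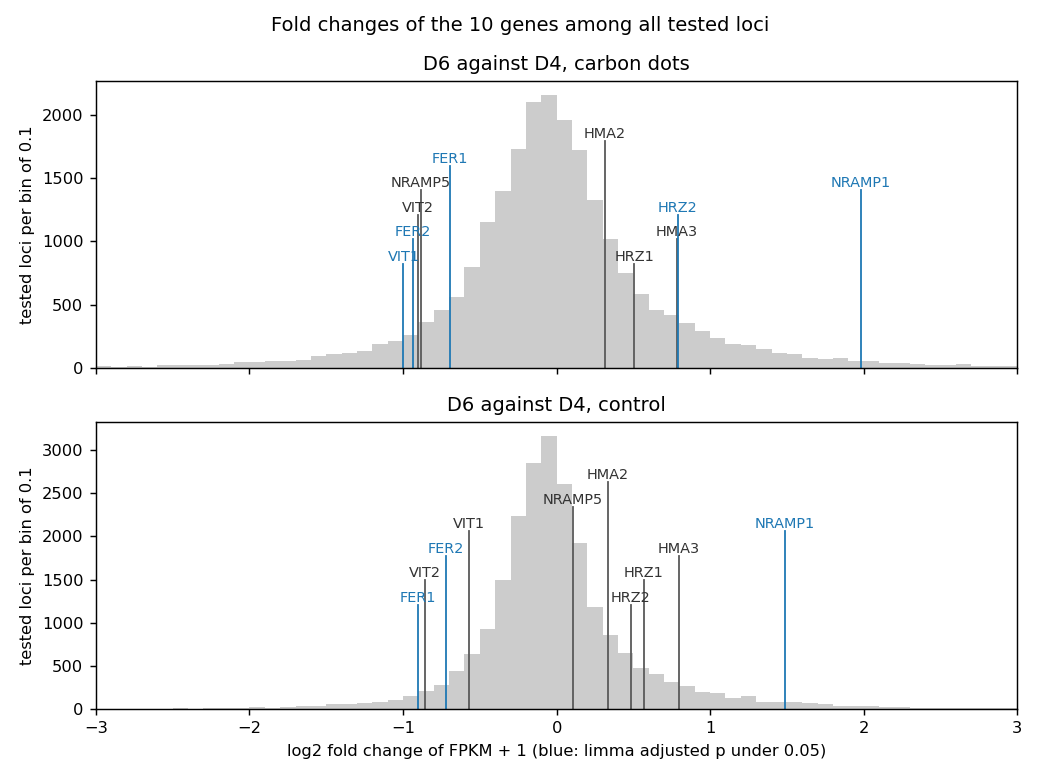
Number of tested loci (vertical axis) per bin of 0.1 in log2 fold change of FPKM + 1 (horizontal axis), D6 over D4, for carbon dot roots above and control roots below. Lines mark the 10 genes, blue where they passed: NRAMP1 lies beyond 98.4% and 98.2% of all tested loci, and the ferritins and VIT genes lie no higher than 10.6% above and 7.8% below.

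At D6, the question was whether carbon dots altered these genes. No gene of the 10 passed (limma, 0 of 10, and voom on the recovered fragments also called 0), against 0.522% of all tested loci (0.404% upwards and 0.118% downwards). Of the 10, 2 (NRAMP5 and VIT1) had an unadjusted limma p under 0.05, as did 3603 of the 22794 tested loci. The median log2 fold change of the 10 was -0.06, beside -0.02 over all tested loci. The lowest values were those of NRAMP5 and VIT1. NRAMP5 stood at 8.11 and 12.7 FPKM in D6_100X, against 19.9 and 24.5 FPKM in D6_CK. Both carbon dot libraries were below both controls, and below all 4 D4 libraries as well. The log2 fold change was -1.05 ± 0.44, with a 95% interval of -2.09 to -0.01, lower than in all but 0.7% of the tested loci (limma adjusted p = 0.314). Over all alternatives its adjusted p ran from 0.0374 to 0.699, and its log2 fold change was -0.75 without D6_100X replicate 1 and -1.34 without D6_100X replicate 2.

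VIT1 stood at 4.49 and 4.07 FPKM in D6_100X, against 6.54 and 6.18 FPKM in D6_CK, with both carbon dot libraries the lowest of the 8. Its log2 fold change was -0.48 ± 0.16, with an interval of -0.85 to -0.11 (limma adjusted p = 0.219). For the other 8 genes the libraries of the 2 groups overlapped at D6. The share of all tested loci whose groups lay apart at D6 was not counted, so this is a description only. HRZ2 had the highest log2 fold change of the 10, 0.25 ± 0.15, and FER2 was at -0.29 ± 0.17. The intervals for FER1 (-0.32 to 0.27), HRZ1 (-0.46 to 0.33), NRAMP1 (-0.31 to 0.56) and HMA2 (-0.36 to 0.46) leave room for differences of those sizes, and those for VIT2 (-0.82 to 0.73) and HMA3 (-0.76 to 0.63) for larger ones.

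The same question was asked at D4. None of the 10 genes passed or had an unadjusted p under 0.05 (limma, with 0 by voom too), and 0% of all tested loci passed. The log2 fold changes ran from -0.37 ± 0.18 for NRAMP1 to 0.07 ± 0.17 for HMA2, with a median of -0.06 beside -0.01 over all tested loci. NRAMP1 stood at 10.7 and 13.7 FPKM in D4_100X, against 13.7 and 18.5 FPKM in D4_CK, with the upper carbon dot library just above the lower control (limma adjusted p = 1). FER1, at 13.9 and 12.3 FPKM in D4_100X, against 16.3 and 14.8 FPKM in D4_CK, was the one gene of the 10 whose D4 groups did not overlap (-0.23 ± 0.12, adjusted p = 1). The share of all tested loci whose groups lay apart at D4 was not counted either. NRAMP5 had nearly equal D4 means, 20.9 ± 10.4 FPKM in D4_100X and 21.9 ± 11 FPKM in D4_CK (SD, n = 2 each).

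Whether the carbon dot effect at D6 differed from that at D4 was tested as the difference of the 2 effects. None of the 10 passed (limma, with 0 at an unadjusted p under 0.05 and 0 by voom), against 0.00877% of all tested loci (0.00439% in each direction). An unadjusted limma p under 0.05 was found at 2112 of the 22794 tested loci. The largest differences in size were -0.99 ± 0.62 for NRAMP5 (adjusted p = 0.678) and 0.50 ± 0.25 for NRAMP1 (adjusted p = 0.619). Since this difference is also that between the D6 over D4 changes of carbon dot and control roots, HRZ2 and VIT1, which passed with carbon dots and not in the controls, were not shown to change unequally (limma adjusted p = 0.721 and 0.620). Averaged over D6 and D4, no gene of the 10 passed the limma test of the carbon dot effect (0 by voom too), against 0% of all tested loci. VIT1 alone of the 10 had an unadjusted p under 0.05 (limma log2 fold change -0.27 ± 0.11, adjusted p = 0.531), as did 2145 of the 22794 tested loci.

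The libraries of the D4 groups differed by replicate number in several of these genes. NRAMP5 stood at 28.2 and 29.6 FPKM in the replicate 2 libraries of D4_100X and D4_CK, against 13.5 and 14.1 FPKM in their replicate 1 libraries. VIT2 stood at 14.9 and 15.4 FPKM in replicate 2, against 9.14 and 8.89 FPKM in replicate 1, and HMA3 at 12.2 and 11.6 FPKM in replicate 2, against 6.45 and 7.38 FPKM in replicate 1. In these genes the D4 libraries of one number were alike across treatments and those of one treatment were not. Over all tested loci the differences between replicates 2 and 1 correlated across genes at r = 0.602 between the D4 groups and at -0.112 between the D6 groups, as a description, since genes are not independent replicates. NRAMP5 was also higher in replicate 2 at D6, by 0.59 (log2) in D6_100X and 0.29 in D6_CK. The ferritins differed little by number at D4, by -0.16 and -0.13 for FER1 and by 0.14 and -0.02 for FER2 in D4_100X and D4_CK. The labels do not say what a replicate number stands for.

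**Figure D4:**
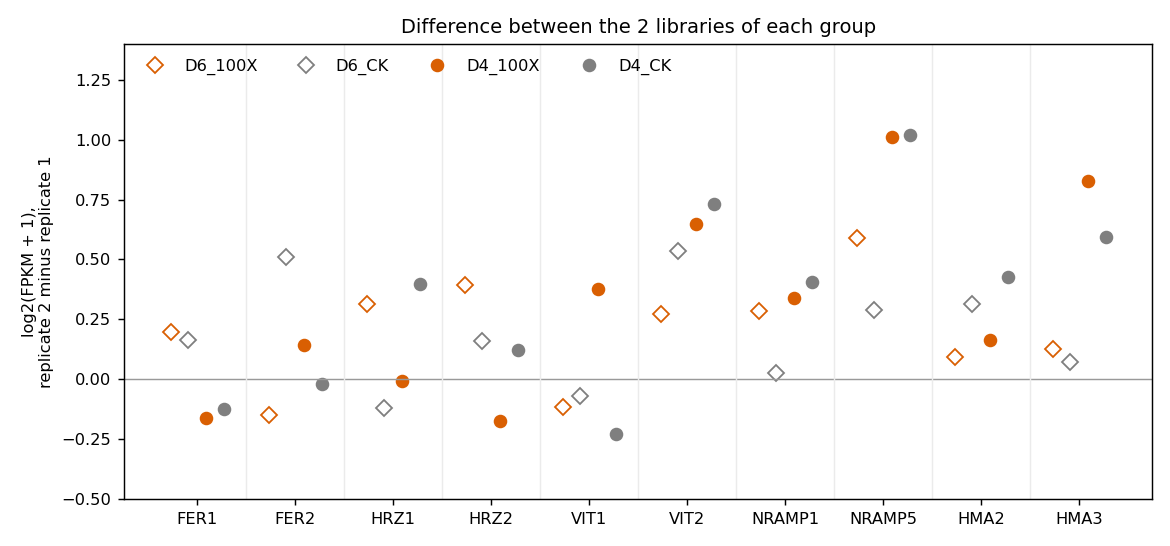
Difference between replicate 2 and replicate 1 in log2(FPKM + 1) (vertical axis) for each of the 10 genes (horizontal axis). Open diamonds are the D6 groups and filled circles the D4 groups, orange with carbon dots and grey for controls. For VIT2, NRAMP5 and HMA3 both D4 groups lie between 0.59 and 1.02, and for FER1 both lie slightly below 0.

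Other genes of metal handling were read from a list of 42 loci for iron uptake and chelation, iron regulators and other metal transport, 40 of them tested. For D6 over D4 with carbon dots 22 passed upwards and 2 downwards (limma), beside 14.5% and 15.3% of all tested loci. The median log2 fold change of the 40 was 0.72. In the controls 7 passed upwards and 0 downwards, beside 5.42% and 4.72% of all tested loci, with a median of 0.62. By class, 8 of 12 tested uptake and chelation loci, 4 of 8 regulators and 10 of 20 other transport and chelation loci passed upwards with carbon dots. In the controls 2, 0 and 5 of them did. The class medians of the log2 fold change were 1.39, 0.49 and 0.52 with carbon dots, against 1.36, 0.37 and 0.39 in the controls. For the difference of the carbon dot effects 0 of the 40 passed (limma), beside 0.00877% of all tested loci. The fallers with carbon dots were LOC_Os03g12530, listed as the manganese transporter MTP8.1 (log2 fold change -0.61 ± 0.13, limma adjusted p = 0.0132), and LOC_Os12g39180, listed as NRAMP6 (-0.40 ± 0.10, limma adjusted p = 0.0281). The 2 uptake and chelation loci that passed upwards in the controls were listed as NAS2, a synthase of the metal chelator nicotianamine (1.90 ± 0.46, limma adjusted p = 0.0480), and OPT7, an oligopeptide transporter family member (1.45 ± 0.12, limma adjusted p = 0.00556). These 4 were named after their values were seen. With carbon dots 12 passed without D6_100X replicate 2 and 15 without D6_100X replicate 1. In the controls 1 passed without D4_CK replicate 1 or either D6_CK library, 11 without D4_CK replicate 2, and 12 and 13 without D4_100X replicates 1 and 2. For the carbon dot effect 0 of the 40 passed at D6, beside 0.522% of all tested loci, and 0 at D4, beside 0%.

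The other metal genes with the lowest adjusted p and a matched symbol were pumps, zinc transporters and an aluminium transporter. HMA5, a copper pump that loads the xylem, averaged 72.1 ± 6.03 FPKM in D6_100X, against 12.9 ± 3.72 FPKM in D4_100X, and 37.1 ± 5.73 FPKM in D6_CK, against 13.2 ± 0.701 FPKM in D4_CK (SD, n = 2 each). It rose in both (limma log2 fold change 2.42 ± 0.20 and 1.42 ± 0.20, adjusted p = 0.000739 and 0.0120). HMA4, a copper pump of the vacuole membrane, averaged 70.1 ± 3.70 FPKM in D6_100X, against 30.7 ± 2.67 FPKM in D4_100X (log2 fold change 1.17 ± 0.11, limma adjusted p = 0.001). In the controls it averaged 43.0 ± 3.30 FPKM in D6_CK, against 32.4 ± 1.82 FPKM in D4_CK, which did not pass (0.40 ± 0.11, limma adjusted p = 0.0619). HMA9, a metal efflux pump, averaged 117 ± 1.31 FPKM in D6_100X, against 68.8 ± 8.24 FPKM in D4_100X (0.77 ± 0.10, limma adjusted p = 0.00298). Its control means, 83.5 ± 2.33 FPKM in D6_CK, against 63.7 ± 1.39 FPKM in D4_CK, did not pass (0.39 ± 0.10, limma adjusted p = 0.0600). For HMA4 and HMA9 the difference between the changes with carbon dots and in the controls did not pass either (limma adjusted p = 0.251 and 0.506). ZIP4, a zinc transporter, averaged 37.9 ± 1.49 FPKM in D6_100X, against 12.3 ± 2.35 FPKM in D4_100X, and 24.0 ± 3.34 FPKM in D6_CK, against 14.2 ± 1.78 FPKM in D4_CK (limma adjusted p = 0.00143 and 0.0401). In the controls ZIP7, another zinc transporter, averaged 12.3 ± 0.208 FPKM in D6_CK, against 7.10 ± 0.782 FPKM in D4_CK, and NRAT1, an aluminium transporter of the NRAMP family, 45.5 ± 12.8 FPKM in D6_CK, against 16.2 ± 1.80 FPKM in D4_CK (limma adjusted p = 0.0189 and 0.0249).

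The tested loci most like NRAMP1 in pattern were LOC_Os02g22130 and LOC_Os02g39900. Likeness was the root mean square difference of log2(FPKM + 1), each centred on its mean over the 8 libraries, and it was 0.142 and 0.143. LOC_Os02g22130 stood at 117.9 and 116.85 FPKM in D6_100X and at 111.91 and 100.24 FPKM in D6_CK, against 29.2 and 36.29 FPKM in D4_100X and 28.18 and 42.04 FPKM in D4_CK. LOC_Os02g39900 was a low locus, at most 3.53 FPKM. The files give neither locus a name.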

How the data were processed

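The authors deposited 1 table of FPKM per locus and library. The tools listed in the submitters' processing notes are featureCounts 1.6.4, HISAT2, SAMtools and fastp. Their settings, build and gene models: not given in the sources used here. Fragments were recovered from the FPKM as whole multiples of a step: of 1115 low loci 95.5% had whole steps within 0.002, the totals of the libraries differed by 0.0098%, and 100.0% of loci above 0 gave whole fragments, within about 0.005 of a fragment, at 1 length per locus. Contrasts were tested with moderated limma 3.58.1 statistics (R 4.3.3, trended eBayes) on log2(FPKM + 1), with a pseudocount of 1, in 1 fit of 4 group means over 8 libraries (4 residual degrees of freedom), and 6 contrasts. Adjustment was by Benjamini-Hochberg over 22794 loci. Tested on simulated data with 200 changed genes at D6, the script called 76% of 2-fold and 92% of 4-fold changes, and 19 of its 187 calls were false. The simulation gave every gene the same spread beyond counting and no difference by replicate number. These shares therefore need not hold for genes whose libraries lay far apart, such as NRAMP5.

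The 10 genes and the lists were chosen with earlier results of these data known. All 10 were named. Of the 42 other loci those past the threshold with a matched symbol were eligible, at most the 4 with the smallest adjusted p in a comparison, and the loci most like a member were sought for the member called in the most comparisons, with ties (NRAMP1, FER1 and FER2) settled by the smallest adjusted p. The deposited table holds no names. The symbols of 5 of the 10 genes (VIT1, VIT2, NRAMP1, NRAMP5, HMA2) and of 26 of the 42 were found in the RefSeq gene table of assembly ASM3414082v1 on the same chromosome near the implied place, and the other 5 names rest on published locus identifiers. Alternatives varied the pseudocount (0.1, 0.5), the filter, scaling, groups fitted, robust eBayes, replicate terms, voom on recovered fragments and single libraries left out. Leaving 1 out leaves an arm with 1 library, assumed to vary like the rest. Replicate numbers did not pair the libraries over all groups (r from -0.112 to 0.602).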

Additional observations from a re-analysis of the deposited data

How the results depend on the processing

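Of the 60 results of single genes under 20 alternatives, 1091 of 1174 values kept their direction and their side of the threshold, 17 lost a call, 17 gained one and 0 turned past the threshold. The remaining 49 changed sign with neither value past it. For D6 over D4 with carbon dots, where 5 of the 10 genes passed, 8 passed with the replicate block and 8 with the replicate block within D4 only, and 3 to 6 when single libraries were left out. Of all 22794 tested loci, 6789 passed in the main fit, 7058 with the first of these blocks and 8692 with the second. The first gained VIT2 (limma adjusted p = 0.00643), NRAMP5 (0.0197) and HMA3 (0.0322), and the second HRZ1 (0.0300), HMA2 (0.0424) and HMA3 (0.000904). In the controls 4 passed with either: the first gained VIT2 (0.0207), and the second gained HRZ1 (0.0360) and HMA3 (0.00249) and lost FER2 (0.0519). In the controls 0 to 3 passed when single libraries were left out, beside 3 in the full data: 0 without D6_CK replicate 1 and 1 without D4_CK replicate 1. For the carbon dot effect at D6, the replicate block within D4 only gave 1 call, NRAMP5 (limma adjusted p = 0.0374), where the full fit gave 0. The labels do not say whether the replicate numbers pair libraries, and the block within D4 only was tried because of earlier results of these data. A crossed replicate block within D6 only, chosen after seeing the data, called 5, 3 and 0 of the 10 for D6 over D4 with carbon dots, in controls and for the D6 effect. Of the 40 other metal genes, D6 over D4 in controls gave 17 calls with the replicate block, 20 with it within D4 only, 2 with the crossed one and 3 without a filter, beside 7, and with carbon dots the crossed one gave 14, beside 24. For the D6 effect it was 1 with a mean FPKM of at least 5, 3 with only the groups compared, 7 with the replicate block within D4 only and 2 without either D4_100X library, beside 0.

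Over all loci the D6 effect gave 119 calls, 0 to 231 over the libraries left out, 16 and 68 with pseudocounts of 0.1 and 0.5, 11 without a filter, 11 with the replicate block, 1400 with it within D4 only, 2 with the crossed one and 697 with only the groups compared. D6 over D4 in controls gave 2311, 60 to 2911 over the libraries left out, 1446 without a filter, 1292 with only the groups compared, 4810 with the replicate block within D4 only and 978 with the crossed one. With carbon dots it gave 6789, and 2862 to 6766 over the libraries left out. The difference of effects gave 2 calls, 100 with the replicate block within D4 only and 0 with either pseudocount, either filter, the replicate block, the crossed one, voom or any library left out. The D4 effect gave 0, and 2 without a filter. The mean effect gave 0, and 3 without D4_100X replicate 2. The fit of only the groups compared could not be made for the mean effect and the difference of effects. The causes were not tested.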
